A study of Mus musculus with 8 samples.

Results

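Tfap2c, Tfdp1, Med23, Med8, Kat6b and Dnmt1 are 6 of the 417 gene names in a deposited expression table of mature mouse oocytes. They encode transcription factors, subunits of Mediator, a histone acetyltransferase and a DNA methyltransferase. The table was read with the KO and Ctrl values already known, and these genes were picked by name from rows that differ between the groups. Their KO and Ctrl values are therefore given as a description, with no test. The 8 libraries were made by Smart-seq2, which copies whole transcripts from small inputs, from merged metaphase II oocytes of females aged about 6 months. The 4 Ctrl libraries are labelled L/L with genotype WT, and the 4 KO libraries are labelled L/L cre with genotype KO. Cre is a recombinase that removes marked stretches of DNA. The labels name neither the targeted gene nor the promoter that drives Cre, so the loss of the target was not checked. They also do not say whether the libraries came from separate females, so p-values here measure the spread between these libraries, which may be technical. The design text asks how raised reactive oxygen species in the mitochondrial matrix alter oocyte transcripts.

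Growing oocytes build up a store of messenger RNA and then stop transcribing before ovulation. A mature oocyte therefore carries transcripts made earlier, whose levels move through decay and storage until the embryo's own genome is switched on. Transcription factors bind DNA at chosen sites. Mediator is the multi-subunit bridge that carries their signal to RNA polymerase II. Histone acetyltransferases and DNA methyltransferases mark chromatin in ways that favour or silence transcription.

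The values are TPM, which divide a transcript's reads by its length and bring each library to one total. Levels of different genes can therefore be set side by side. Each of the 6 genes has 1 row with no transcript identifier, although GENCODE lists from 6 to 14 transcripts for each. A row may thus stand for 1 transcript of its gene, and reads assigned to another transcript would not be seen. The smallest ratio of group means in the 469 rows was 2.04. Summed over these rows, Ctrl libraries held 32000 to 42538 TPM, against 12869 to 19916 TPM for KO. Mitochondrially encoded genes held 22750 to 29002 TPM of this in Ctrl and 5157 to 14088 TPM in KO. Sequencing depth is unknown. Of the 402 genes whose mean reached 1 TPM, 18 to 48 were listed at 0 in any given library. An exact 0 can be a failed estimate, so members with zeros are given library by library. Other genes with zeros are mostly given as ranges, whose lower end may be such a 0. None of 13 oocyte markers, none of 12 cumulus and granulosa cell markers, none of 4 blood and immune markers and none of 3 stromal and endothelial markers has a row in the table used here. The cell type named by the labels was therefore not checked. In pooled oocytes, fewer cells carrying a transcript and less of it per cell cannot be told apart.

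Tfap2c, Tfdp1 and Med23 were higher in KO oocytes, and Med8 was lower, with no overlap between the 4 KO and the 4 Ctrl libraries. These are 4 of the 6 genes. Of the 402 genes kept, 56.5% did not overlap either, with 20.1% lying higher in KO and 36.3% lower. Kat6b and Dnmt1 had lower KO medians with overlapping groups. Dnmt1 was by far the most abundant of the 6. It stood at rank 14 of the 402 genes by mean TPM, while the other 5 stood between ranks 195 and 351.

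**Figure D1:**
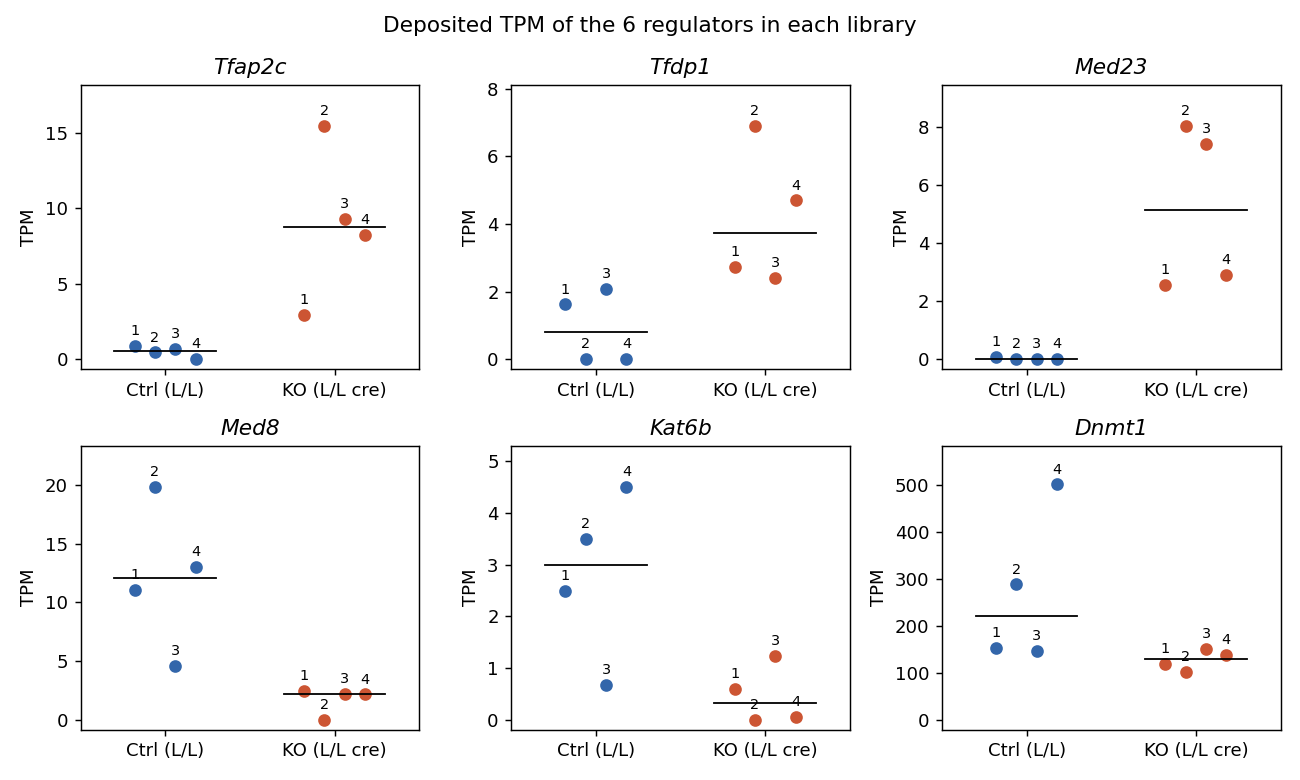
Deposited TPM (vertical axes, linear, each with its own scale) of the 6 genes in each library, with the replicate number beside each point and a black line at the group median. The groups do not overlap for Tfap2c, Tfdp1, Med23 and Med8, and they overlap for Kat6b and Dnmt1.

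Tfap2c encodes AP-2 gamma, a transcription factor known for its part in germ cell precursors and in the first lineages of the mouse embryo. The gene lies at chr2:172549593-172558622 on the plus strand (GRCm38, GENCODE M21). Its level was 0.891, 0.439, 0.683 and 0.000445 TPM in Ctrl libraries 1 to 4. In KO libraries 1 to 4 it was 2.93, 15.4, 9.27 and 8.21 TPM. Every KO library was above every Ctrl library, with KO library 1 nearest to Ctrl and KO library 2 farthest. The median went from 0.561 to 8.74 TPM, a difference of 2.59 ± 0.51 (SE, n = 4 each) on the log2(TPM + 1) scale. That scale adds 1 TPM before taking the logarithm and so understates the change of genes as low as Tfap2c in Ctrl. No other gene of the AP-2 family or of its listed cofactors, 10 names in all, has a row here.

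Tfdp1 encodes DP1, the partner that E2F transcription factors need to bind DNA firmly, and the pair drives genes of DNA synthesis and the cell cycle. The gene lies at chr8:13338751-13378448 on the plus strand. Ctrl libraries 1 and 3 held 1.62 and 2.07 TPM, and Ctrl libraries 2 and 4 were listed at 0. KO libraries 1 to 4 held 2.74, 6.90, 2.41 and 4.70 TPM. The groups were separate, but only narrowly, since KO library 3 lay just above Ctrl library 3. The difference was 1.54 ± 0.50 (SE, n = 4 each) on the log2(TPM + 1) scale, and 0.79 ± 0.55 (SE) when the Ctrl libraries listed at 0 were left out. Gm7390, a processed pseudogene with no row here, shares 97.6% of 1230 bp with Tfdp1, so reads of the 2 could be split. The only other gene of the E2F, DP and pocket protein list with a row was Lin52, a subunit of the MuvB core that joins these factors in the DREAM complex. Lin52 spanned 4.96 to 47.7 TPM in Ctrl against 39.3 to 88.6 TPM in KO, and its groups overlapped.

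Promoter sequence was matched in RefSeq (GRCm38.p6) for 3 of the 6 genes, Tfdp1, Kat6b and Dnmt1, with 7 start windows in all. Each window runs from 250 bases before an annotated start to 50 bases after it. The windows were searched on both strands for the AP-2 palindrome GCCNNNGGC and for the E2F-DP letters TTTGGCGC, TTTCCCGC, TTTCGCGC and TTTGCCGC. AP-2 gamma and DP1 are products of 2 of the 6 genes, which is why these letters were chosen. The 250 bases before the most upstream Tfdp1 start (chr8:13338501-13338750, plus strand) are shown 5′ to 3′ with matches in capitals.
Tfdp1: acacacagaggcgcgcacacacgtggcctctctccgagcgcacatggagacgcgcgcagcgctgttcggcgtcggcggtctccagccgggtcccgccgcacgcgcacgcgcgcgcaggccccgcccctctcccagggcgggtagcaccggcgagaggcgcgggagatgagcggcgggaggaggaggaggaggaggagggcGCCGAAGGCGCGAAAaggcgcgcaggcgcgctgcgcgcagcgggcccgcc
The capitals hold an AP-2 match at positions -50 to -42 from the start and an E2F-DP match, GCGCGAAA, at -43 to -36, which share letters. An AP-2 match was in 16.6% and an E2F-DP match in 2.26% of all 32851 RefSeq windows. Among the 445 windows of genes with a row, the shares were 25.8% and 4.72%. A match describes letters only and was not tested as a binding site.

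Among Mediator subunits, Med23 and Med8 went opposite ways. Med23, a subunit of the tail module that meets transcription factors, lies at chr10:24869986-24913681 on the plus strand. In Ctrl, library 1 held 0.0784 TPM, libraries 2 and 3 were listed at 0 and library 4 held 9.07e-10 TPM, which is a vanishing estimate. In KO libraries 1 to 4 it was at 2.54, 8.02, 7.40 and 2.90 TPM. All KO libraries were high and all Ctrl libraries were at or near 0, so no fold is given. On the log2(TPM + 1) scale the difference was 2.48 ± 0.42 (SE, n = 4 each). Gm45528, which has no row here, shares 95.1% of 264 bp with Med23.

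Med8, a subunit of the head module that touches RNA polymerase II, lies at chr4:118409337-118415782 on the plus strand. Ctrl libraries 1 to 4 held 11.0, 19.8, 4.58 and 13.0 TPM. KO libraries 1, 3 and 4 held 2.44, 2.20 and 2.17 TPM, and KO library 2 was listed at 0. The 3 KO libraries above 0 lay close together, while the Ctrl libraries were spread widely. The difference was -2.28 ± 0.56 (SE, n = 4 each) on the log2(TPM + 1) scale.

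Of the 33 genes of the Mediator list, 4 have a row, and the other pair, Med6 and Med25, also went opposite ways. Of all 402 genes tested, 36.6% were called higher in KO and 57.2% lower, so the table as a whole went both ways. Med6, which sits with Med8 in the head module, spanned 19.0 to 61.2 TPM in Ctrl against 8.04 to 13.7 TPM in KO. Med25, which is reached by activators, spanned 1.10 to 2.68 TPM in Ctrl against 3.35 to 8.63 TPM in KO. Both passed a limma adjusted p of 0.05 over the 402 genes, at 0.0225 for Med6 and 0.0262 for Med25, as did 93.8% of all genes tested in this preselected table. The Med6 call was lost without Ctrl library 2 or KO library 2, and that of Med25 without either of these or KO library 4. Med6 had a log2(TPM + 1) difference of -1.23 ± 0.43 (SE) and Med25 one of 1.24 ± 0.46 (SE). Under median-of-ratios scaling Med6 was at -0.46 and lost its call (limma adjusted p = 0.185). It also lost its call under quantile normalization (limma adjusted p = 0.0796). Med25 kept its call under both (limma adjusted p = 0.0148 and 0.0111).

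Kat6b encodes MORF, a histone H3 acetyltransferase that works in a complex with a BRPF scaffold, MEAF6 and ING5. The gene lies at chr14:21481434-21672478 on the plus strand. Ctrl libraries 1 to 4 held 2.50, 3.50, 0.675 and 4.51 TPM. KO libraries 1 to 4 held 0.594, 1.30e-05, 1.24 and 0.0643 TPM. Ctrl library 3 fell below KO library 3, and the other Ctrl libraries were above every KO library. The difference was -1.31 ± 0.44 (SE, n = 4 each) on the log2(TPM + 1) scale. It was -0.79 ± 0.44 (SE) when Ctrl libraries 2 and 4 were left out together.

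The 250 bases before the Kat6b start at position 21499770 (chr14:21499520-21499769, plus strand) carry 2 AP-2 matches, shown in capitals, at -80 to -72 and -19 to -11, and no E2F-DP match.
Kat6b: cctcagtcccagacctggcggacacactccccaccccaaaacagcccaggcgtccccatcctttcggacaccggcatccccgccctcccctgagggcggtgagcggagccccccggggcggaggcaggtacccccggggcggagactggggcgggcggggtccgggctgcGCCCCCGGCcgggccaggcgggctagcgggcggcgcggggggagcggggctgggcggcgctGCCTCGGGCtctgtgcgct

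Of 43 acetyltransferase genes and subunits, 3 others have a row. Ing5, the MORF partner that reads a methylated tail of histone H3, spanned 6.83 to 17.6 TPM in Ctrl against 0.801 to 4.71 TPM in KO. It fell by 1.76 on the log2(TPM + 1) scale (SE 0.51, limma adjusted p = 0.0144), a call that leaving out any single library did not end. Under median-of-ratios scaling the Ing5 difference was -1.08 and the call was lost (limma adjusted p = 0.0684), as it was without Ctrl libraries 2 and 4 (limma adjusted p = 0.125). Ncoa2, a coactivator of nuclear receptors, rose by 1.08 (SE 0.42, limma adjusted p = 0.0288) with overlapping groups, a call lost without Ctrl library 2 or KO library 2, 3 or 4. Kat7, the HBO1 acetyltransferase, did not pass (limma adjusted p = 0.0904), with 0.779 to 2.26 TPM in Ctrl against 1.49 to 7.12 TPM in KO.

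Dnmt1 copies DNA methylation onto the new strand after replication, and oocytes are known to use a start of their own that gives a shorter protein. The gene lies at chr9:20907209-20959888 on the minus strand. Its level was 153, 288, 146 and 501 TPM in Ctrl libraries 1 to 4. In KO libraries 1 to 4 it was 120, 102, 151 and 139 TPM. Ctrl libraries 2 and 4 stood high, while Ctrl libraries 1 and 3 lay close to the KO range and KO library 3 exceeded Ctrl library 3. The means were 272 ± 166 TPM in Ctrl and 128 ± 21.3 TPM in KO (SD, n = 4 each), a ratio of 2.13. Only 24 of the 469 rows had a smaller ratio of group means than this. The difference was -0.91 ± 0.40 (SE, n = 4 each) on the log2(TPM + 1) scale. It was -0.55 without Ctrl library 4, -0.49 when libraries were weighted by their fit (limma array weights) and -0.24 ± 0.30 (SE) without Ctrl libraries 2 and 4. No other gene of the 27 on the DNA methylation list has a row here.

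The annotated Dnmt1 transcripts start at sites of very different sequence, shown here because the row does not say which start its reads came from. Dnmt1-202 begins 6909 bp upstream of Dnmt1-201, and their reading frames hold 1501 and 1620 codons. Dnmt1-203, which begins 356 bp downstream of Dnmt1-201, also holds 1501 codons, so the shorter frame is not particular to the upstream start. The 250 bases before the start of Dnmt1-202 are chr9:20959889-20960138 and those before Dnmt1-201 are chr9:20952980-20953229, both read on the minus strand with motif matches in capitals.
Dnmt1-202: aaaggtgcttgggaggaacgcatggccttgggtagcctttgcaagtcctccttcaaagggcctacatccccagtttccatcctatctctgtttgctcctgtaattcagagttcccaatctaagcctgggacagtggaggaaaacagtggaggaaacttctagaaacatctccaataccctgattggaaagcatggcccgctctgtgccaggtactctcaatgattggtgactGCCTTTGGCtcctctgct
Dnmt1-201: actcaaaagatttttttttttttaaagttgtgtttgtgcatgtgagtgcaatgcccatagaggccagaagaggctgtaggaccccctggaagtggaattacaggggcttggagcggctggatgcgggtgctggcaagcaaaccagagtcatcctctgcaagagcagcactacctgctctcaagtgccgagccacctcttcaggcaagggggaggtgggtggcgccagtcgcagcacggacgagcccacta
Dnmt1-202 has an AP-2 match at -18 to -10 and 2 CpG dinucleotides in its window of 300 bases, and Dnmt1-201 has neither motif and 12 CpG. Another window, at the start of Dnmt1-203, has 33 CpG and 2 E2F-DP matches, GCGCGAAA at -219 to -212 and TTTGGCGC at 34 to 41. The windows of 300 bases at the Kat6b and Tfdp1 starts hold 32 and 56 CpG, of which the 250 bases printed above hold 27 and 42. The median over all RefSeq windows was 7, and over the 445 windows of listed genes it was 22. Windows with an AP-2 match made up 22.3% of those of genes called higher in KO and 26.5% of those of genes called lower. For E2F-DP the shares were 4.22% and 5.71%.

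The 6 genes moved with the same libraries. KO library 2 lay farthest from Ctrl for all 6, with the highest Tfap2c, Tfdp1 and Med23 and the lowest Med8, Kat6b and Dnmt1. On the Ctrl side, library 2 lay farthest from KO for Tfdp1, Med23 and Med8, and library 4 for Tfap2c, Kat6b and Dnmt1, with ties at 0 for Tfdp1 and Med23. The same libraries were farthest in much of the table, KO library 2 in 61.7% of the 402 genes, Ctrl library 2 in 39.6% and Ctrl library 4 in 42.3%. KO library 2 also had the lowest sum over the listed rows, 12869 TPM, of which mitochondrially encoded genes held 5157 TPM, again the lowest. Median-of-ratios size factors, computed from the 266 genes above 0 in every library, were 1.76 and 1.89 in Ctrl libraries 2 and 4, 0.562 in KO library 2 and between 0.861 and 1.17 in the others. The part of these library differences in the results was not tested.

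**Figure D2:**
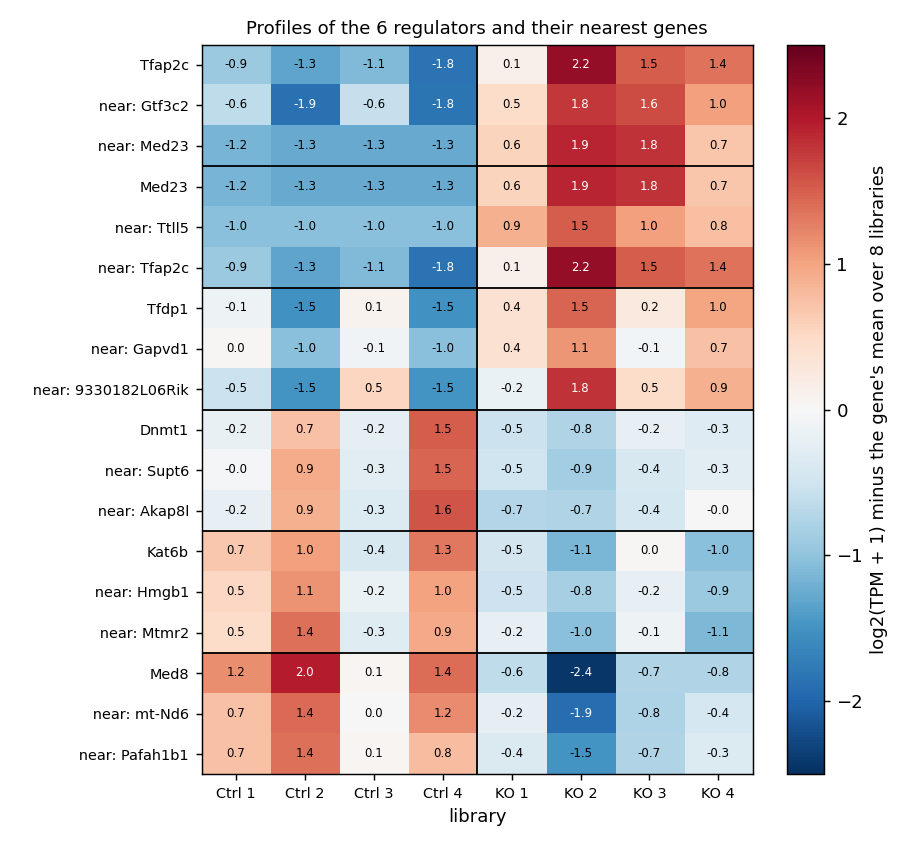
Each cell is log2(TPM + 1) in a library minus the gene's own mean over the 8 libraries, for the 6 genes and, under each, the 2 genes whose profile differed least. KO library 2 holds the most extreme KO value for all 6, 2.2 above the mean for Tfap2c and 2.4 below it for Med8.

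The 2 nearest profiles over the 8 libraries were listed for each regulator. Likeness was measured as the root mean square difference of the profiles in log2(TPM + 1), after each gene's own mean was subtracted. The difference between KO and Ctrl stayed in the profiles, so genes that differ alike between the groups come out near. Dnmt1 had the smallest distances, Supt6 at 0.12 and Akap8l at 0.17, against a median of 0.87 over all kept genes. The median distance was 0.85 for Kat6b, 1.01 for Med8, 1.62 for Tfdp1, 1.89 for Med23 and 2.01 for Tfap2c. A nearest gene lies below its median by construction, so these distances give an order and no test. Supt6 encodes a histone chaperone of transcript elongation and did not pass the test between the groups (limma adjusted p = 0.0554). Kat6b was nearest to Hmgb1, a DNA-bending chromatin protein, at 0.21 and to Mtmr2 at 0.23. Tfap2c was nearest to Gtf3c2, a subunit of the RNA polymerase III factor TFIIIC, at 0.36 and to Med23 at 0.39. Med23 was nearest to Ttll5 at 0.36 and then to Tfap2c. Tfdp1 was nearest to Gapvd1 and 9330182L06Rik, both at 0.32. Med8 was nearest to the mitochondrially encoded mt-Nd6 at 0.36, which went from 131 to 351 TPM in Ctrl to 33.9 to 112 TPM in KO, and to Pafah1b1 at 0.50. The genes share the same 8 libraries and their scaling, and every listed row had group means that differed at least as much as stated above.

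Scaling the libraries anew kept the order of the genes but moved Dnmt1 to near 0. Median-of-ratios scaling raised the median difference of all 402 genes by 0.70, from -1.05 to -0.35 on the log2 scale, and quantile normalization raised it by 0.36. After median-of-ratios scaling Dnmt1 stood at 130, 164, 148 and 266 in Ctrl libraries 1 to 4 and at 139, 182, 156 and 161 in KO libraries 1 to 4. The groups overlapped almost wholly, and the difference was -0.10 ± 0.25 (SE), or -0.088 ± 0.26 (SE) under quantile normalization. Med8 was at -1.76 ± 0.52 (SE) and Kat6b at -0.92 ± 0.36 (SE) after median-of-ratios scaling. Tfap2c, Med23 and Tfdp1 were at 2.97, 2.76 and 1.85. Both scalings were computed from the listed rows alone, each of which had a ratio of group means of at least 2.04, so neither is a neutral reference.

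**Figure D3:**
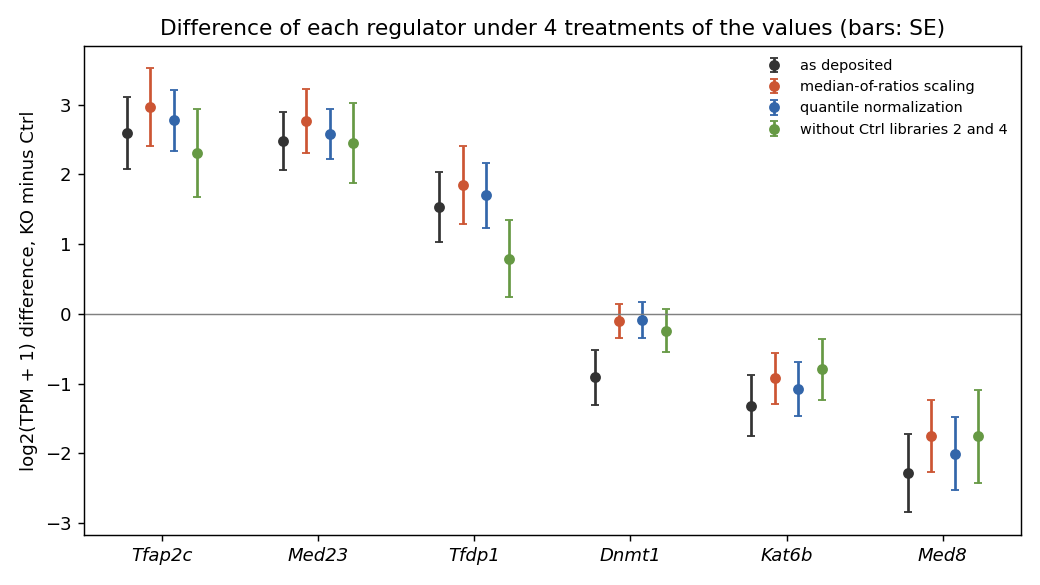
Difference in log2(TPM + 1) between KO and Ctrl (vertical axis, bars show the SE) for each of the 6 genes, from the deposited TPM, under 2 scalings, and without Ctrl libraries 2 and 4. Dnmt1 goes from -0.91 to -0.10 under median-of-ratios scaling, while Tfap2c and Med23 stay above 2.

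Beyond the 6, the 11 lists of transcription and chromatin genes gave 38 other genes whose mean reached 1 TPM. Of these, 14 rose, 21 fell and 3 did not pass (limma adjusted p over 402 genes). The shares of 36.8% and 55.3% were near those of all genes tested, 36.6% higher and 57.2% lower. Their median difference was -1.08, against -1.05 over all 402 genes. Some of the 38 reached 1 TPM only through the group where they were higher, such as Sirt4 and Smarcad1 in KO and Zfp759 and Zfp568 in Ctrl. The rises were kept under median-of-ratios scaling and the falls were not, with 14 higher and 1 lower, the one being Zfp759. Over the whole table that scaling gave 145 higher and 52 lower, in place of 147 and 230. Of the 35 calls, 12 were ended by no single left-out library, and leaving out Ctrl library 2, KO library 2 or Ctrl library 4 ended 20, 19 and 17. Without Ctrl library 2 the counts were 9 higher and 6 lower, without Ctrl library 4 they were 9 and 9, and without KO library 2 they were 7 and 9. Without Ctrl libraries 2 and 4 together, 1 rose and 1 fell.

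From the deposited TPM, 57.2% of all 402 genes tested passed as lower. Of the 93 genes on the histone methylation list, 2 have a row, Ehmt1 and Rbbp5, and both passed as lower. Under median-of-ratios scaling neither did, with limma adjusted p of 0.0722 for Ehmt1 and 0.396 for Rbbp5. Ehmt1, a histone H3 lysine 9 methyltransferase, went from 16.5 to 51.2 TPM in Ctrl to 6.80 to 12.8 TPM in KO (limma adjusted p = 0.0144). Rbbp5, a core subunit of the complexes that methylate histone H3 lysine 4, went from 5.88 to 15.3 TPM to 2.27 to 5.22 TPM, with an adjusted p of 0.0400 (limma) that was lost without any 1 library other than Ctrl library 3. Both genes of the deacetylase list with a row rose, as did 36.6% of all 402 genes tested. Sirt4, a sirtuin of the mitochondrion and not of chromatin, spanned 0 to 0.240 TPM in Ctrl against 0.672 to 5.33 TPM in KO. Its means were 0.0875 TPM in Ctrl and 2.46 TPM in KO, so it passed the filter of 1 TPM only through KO. Sap18, a protein bound to the Sin3 deacetylase complex and to splicing factors, spanned 0 to 7.43 TPM in Ctrl against 4.18 to 153 TPM in KO, and lost its call without KO library 2 or Ctrl library 4.

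Remodelling and histone chaperone genes numbered 8, of which 5 fell, 1 rose and 2 did not pass. The shares over all 402 genes tested were 57.2% lower and 36.6% higher. Hmgb1 fell from a mean of 121 ± 43.9 TPM to one of 48.6 ± 11.5 TPM (SD, 4 libraries each, limma adjusted p = 0.0144), with no overlap. The Hmgb1 difference went from -1.24 to -0.44 under median-of-ratios scaling and to -0.67 under quantile normalization, and both ended the call (limma adjusted p = 0.125 and 0.0668). Chaf1a, the large subunit of the histone chaperone CAF-1, fell from a mean of 18.8 ± 12.6 TPM to one of 5.06 ± 2.52 TPM (SD, 4 libraries each, limma adjusted p = 0.0185) and lost its call without Ctrl library 2 or 4. Chd4, the motor of the NuRD complex, was at 9.62 to 56.2 TPM in Ctrl, was listed at 0 in 2 KO libraries and reached 10.7 TPM in KO, and lost its call without Ctrl library 4. Arid2, a subunit of the PBAF remodeller, spanned 2.70 to 11.9 TPM in Ctrl. In KO it was at 6.25 TPM in library 1 and at 0 to 0.253 TPM in the other libraries. The calls of Chaf1a, Chd4 and Arid2 were lost under median-of-ratios scaling but kept under quantile normalization. The riser was Smarcad1, a remodelling ATPase, with 0 to 0.505 TPM in Ctrl against 0.380 to 6.09 TPM in KO. Its means were 0.128 TPM in Ctrl and 4.01 TPM in KO, so it passed the filter of 1 TPM only through KO.

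Of the 3 genes with a row on the list of RNA polymerase II, general factors and elongation, 2 fell and 1 rose. Of all 402 genes tested, 57.2% were lower and 36.6% higher. Gtf2f1 of TFIIF fell from 23.7 ± 13.8 to 8.52 ± 1.51 TPM and Taf15, an RNA-binding protein found with TFIID, from 14.8 ± 6.40 to 6.17 ± 2.92 TPM (SD, n = 4 each). Gtf2h3 of TFIIH rose from 16.9 ± 12.1 to 46.1 ± 25.7 TPM (SD, n = 4 each). Their limma adjusted p were 0.0228, 0.0373 and 0.0218. Under median-of-ratios scaling Gtf2f1 and Taf15 lost their calls (limma adjusted p = 0.173 and 0.265), while Gtf2h3 kept its call (limma adjusted p = 0.0294). Each of the 3 calls was lost without Ctrl library 4 or KO library 2, those of Gtf2f1 and Taf15 also without Ctrl library 2, and that of Taf15 also without KO library 3.

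Among zinc finger genes, 6 fell and 1 rose, where 57.2% of all 402 genes tested were lower and 36.6% higher. Zfp759 spanned 2.78 to 6.20 TPM in Ctrl against 0 to 1.25 TPM in KO (limma adjusted p = 0.00922), and its call held under every alternative run except the filter at a mean of 5 TPM, which left the gene out. Zfp639, the riser, spanned 0.591 to 9.65 TPM in Ctrl against 6.68 to 13.1 TPM in KO, and lost its call without Ctrl library 2 or 4 or KO library 1, 2 or 4. Zfp111 spanned 3.98 to 6.41 TPM in Ctrl against 1.41 to 2.28 TPM in KO, Zfp451 went from 7.23 to 17.7 TPM to 1.87 to 12.6 TPM, and Zfp568 from 1.44 to 6.96 TPM to 0 to 1.25 TPM. The calls of these 3 were each lost under both scalings and when any of at least 3 single libraries was left out. Other DNA-binding factors numbered 10, of which 6 rose and 4 fell, beside those same shares of 36.6% higher and 57.2% lower. Arntl, the partner of Clock in the circadian oscillator, rose from a mean of 11.0 ± 3.12 TPM to one of 34.0 ± 20.9 TPM (SD, 4 libraries each, limma adjusted p = 0.0163). Pou2f1, a widely expressed octamer-binding factor, rose from a mean of 6.69 ± 1.48 TPM to one of 19.2 ± 6.26 TPM (SD, 4 libraries each, limma adjusted p = 0.0144). Neither call was lost when any single library was left out, but both were without Ctrl libraries 2 and 4 together (limma adjusted p = 0.114 for Arntl and 0.0652 for Pou2f1). Irf1, an interferon response factor, spanned 15.8 to 39.9 TPM in Ctrl against 8.09 to 14.7 TPM in KO, and its call (limma adjusted p = 0.0257) was lost without Ctrl library 2 or 4 or KO library 2 or 4. The most abundant were Nr2e1, an orphan nuclear receptor, which fell from 102 ± 49.3 to 47.9 ± 8.83 TPM, and Nfe2l1, a factor known for driving proteasome genes, which fell from 47.2 ± 29.0 to 17.5 ± 5.94 TPM (SD, n = 4 each). Both calls (limma adjusted p = 0.0266 and 0.0230) were lost without Ctrl library 2 or 4 or KO library 2, that of Nr2e1 also without KO library 4 and that of Nfe2l1 also without KO library 1.

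**Figure D4:**
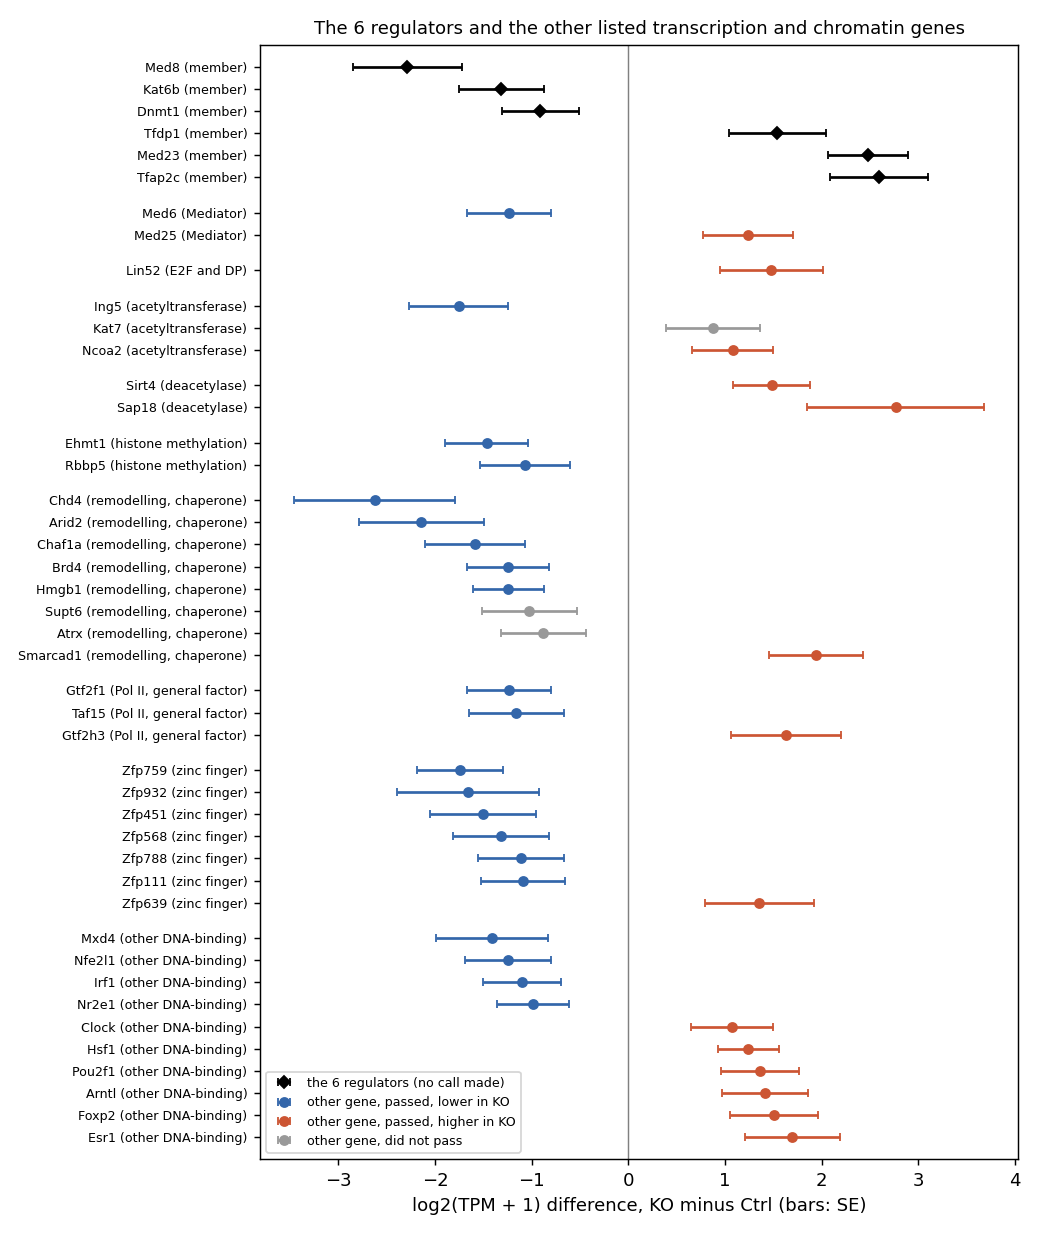
Difference in log2(TPM + 1) between KO and Ctrl (horizontal axis, bars show the SE) for the 6 genes (black diamonds) and the 38 other listed transcription and chromatin genes, grouped by list. Of the 38, 14 passed as higher (red), 21 as lower (blue) and 3 did not pass (grey).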

How the data were processed

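The table holds TPM that the authors deposited for 469 rows and 8 libraries. The tools were sleuth 0.30.1 and kallisto 0.46.2 with build GRCm38, per the submitters' processing notes. For the annotation release, and for the rule that chose the rows, the sources used here give nothing. Groups and replicate numbers come from the titles. Rows of a gene name were summed to 417 genes, and 402 with a mean of at least 1 TPM were kept. All 6 members passed this filter, Tfap2c, Tfdp1 and Med23 only through KO and Kat6b only through Ctrl. A filter on the mean of all 8 libraries lets such genes in through the group where they are high. The log2(TPM + 1) values were fitted in R 4.3.3 by limma 3.58.1 (eBayes with trend, two-sided, Benjamini-Hochberg adjustment over 402 genes, threshold 0.05). The step was tested on simulated data with independent noise in each gene. These held neither shared library differences nor preselected rows, so the effect of those features on the calls was not tested. No count model was fitted to TPM. The members, gene lists and tests were chosen with earlier results of these data known. Named genes are the members, the genes of the related lists with a row (the 6 most abundant where a list has more than 6) and the 2 nearest profiles of each member. Genes under the other observations fall outside this rule and were chosen after their values were seen. Near-identical copies were sought with megablast (blastn 2.17.0) in the GENCODE M21 transcript set, keeping matches of 200 bp or more with 95% identity. Alternatives were other pseudocounts, filters, scalings, limma settings, the replicate number as a block, and libraries left out. Leaving out Ctrl libraries 2 and 4 together, and counting overlap with each library left out, were added after seeing the data. Python 3.11.15 was used for the rest.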

Additional observations from a re-analysis of the deposited data

Results flagged for a closer look

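Within-group outliers were sought in 90 groups of 4 libraries with Dixon's test on log2(TPM + 1), which flags about 1 in 20 by chance, and 10 were found. Among the members, Med8 was listed at 0 in KO library 2 while the rest of KO held 2.17 to 2.44 TPM, and Med23 held 0.0784 TPM in Ctrl library 1 against 0 to 9.07e-10 TPM in the other Ctrl libraries. KO library 2 also stood apart for Med6, at 8.04 TPM, and for Gtf2h3, at 84.6 TPM. KO library 1 stood apart for Arid2, at 6.25 TPM, and for Zfp932, at 7.01 TPM. Smarcad1 was at 0.505 TPM in Ctrl library 3 and 0.380 TPM in KO library 3, each away from its group. Mxd4 was at 17.96 TPM in Ctrl library 4, and Ttll5, a near neighbour of Med23, was at 7.41e-06 TPM in Ctrl library 1 and at 0 in the others.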

How the results depend on the processing

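No member changed direction under any alternative run. By construction, however, the filters, the eBayes settings and the replicate block cannot move a member's difference. For Tfap2c, Tfdp1, Med23 and Med8, whose groups did not overlap, no pseudocount, array weights or left-out library could have reversed the sign. A pseudocount of 0.1 gave log2 differences of 4.10 for Tfap2c, 3.16 for Tfdp1, -3.33 for Med8, 5.34 for Med23 and -2.77 for Kat6b, and a pseudocount of 5 gave 1.27, 0.63, -1.29, 0.98 and -0.49, since it shrinks low values. Dnmt1 moved to -0.10 after scaling by median of ratios, to -0.088 after quantile normalization and to -0.24 without Ctrl libraries 2 and 4, where Tfdp1 moved to 0.79. With each library left out in turn, the differences ranged from 2.30 to 2.98 for Tfap2c, 1.29 to 1.83 for Tfdp1, -2.65 to -1.86 for Med8, 2.26 to 2.71 for Med23, -1.67 to -1.09 for Kat6b and -1.14 to -0.55 for Dnmt1. The count of members without overlap was 4 as deposited and under each scaling. It was 6 without Ctrl library 3 or KO library 3 and 4 without any other library. Leaving out a library can only keep or raise this count, so it cannot show a loss. At a mean of at least 5 TPM the table gave 74 higher and 139 lower, the related genes gave 7 and 13, and 4 members fell out. Lower calls numbered 52 in the table and 1 among related genes after median-of-ratios scaling, and 94 and 7 after quantile normalization. Array weights left 13 related genes lower. Without Ctrl libraries 2 and 4 the table gave 26 higher and 28 lower, and the related genes 1 and 1. Leaving out single libraries gave 74 to 140 higher and 114 to 228 lower in the table, and 7 to 14 and 6 to 22 among related genes. The share of higher calls was 39.0% as deposited, 73.6% with median-of-ratios scaling and 60.8% after quantile normalization. The cause of these moves was not tested, apart from the smaller number of genes or libraries by construction. Same-numbered Ctrl and KO libraries did not deviate together (correlations of their deviations from -0.26 to 0.07). The replicate block gave 112 higher and 167 lower in the table and 10 and 14 among related genes. Depth is unknown, so the precision of levels near 0 cannot be given.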

Other observations

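Chromatin and transcription genes outside the lists were also in the table. The 12 noted were picked after their values were seen and were not tested. Of these, 9 had a lower and 3 a higher mean in KO. Over all 402 genes tested, 57.2% were called lower and 36.6% higher. The lower genes of the 12 not described below are Glyr1, Morc3, Zzz3, Actr8, Setmar and Camta1. Trim24, a reader of histone marks and a coregulator of nuclear receptors, spanned 8.01 to 19.8 TPM in Ctrl against 4.69 to 7.70 TPM in KO. Scml2, a Polycomb protein known from the male germ line, spanned 1.26 to 4.34 TPM in Ctrl against 6.30 to 10.4 TPM in KO. Both were without overlap, as were 56.5% of the 402 genes kept. Gtf3c1 and Gtf3c2, subunits of TFIIIC, which recruits RNA polymerase III, went opposite ways. Gtf3c1 spanned 1.02 to 12.1 TPM in Ctrl against 0 to 0.814 TPM in KO, while Gtf3c2 spanned 0 to 1.44 TPM in Ctrl against 3.99 to 11.4 TPM in KO. Hirip3, a partner of the histone chaperone HIRA, spanned 2.43 to 7.36 TPM in Ctrl against 0.754 to 1.998 TPM in KO. Cecr2, a remodelling factor with a bromodomain, spanned 2.05 to 7.42 TPM in Ctrl against 6.17 to 16.3 TPM in KO, and its groups overlapped.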
